A study of Mus musculus with 15 samples.

Results

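Collagen genes were taken as all genes whose symbol in the array annotation reads Col, a number, a and a number, and 42 of the 18193 genes with a single name on the array met that rule. Each gene stands for 1 probe set, the one with the highest mean over the 15 arrays, and 27 of the 42 have more than 1. Collagens are secreted or membrane proteins whose alpha chains wind into helical trimers. Fibrillar collagens give connective tissue its tensile strength, fibril-associated collagens sit on those fibrils, and type IV collagen forms the sheet of basement membranes. In the pituitary they lie in the capsule and meninges, around the sinusoidal vessels and beneath the epithelium, while the newborn gland rests on the cartilage and bone of the skull base. Of the 42 genes, 11 encode fibrillar chains, 9 fibril-associated chains, 6 type IV chains, 5 type VI chains, 3 short chain network collagens, 4 transmembrane collagens, 2 multiplexins, and 2 were put with anchoring fibrils and others. For 7 of them (Col4a3, Col6a4, Col6a5, Col7a1, Col10a1, Col11a2 and Col17a1) the mean signal lay below the median of all values, 4.37 on the log2 scale.

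RNA came from the pituitaries of newborn mice at postnatal day 1, pooled before labelling, with 5 pools for each of 3 groups and 1 array for each pool. The pools labelled Prop1df/df are from dwarf mutants of strain DF/B. The pools labelled Pit1dw/dw carry the Snell dwarf allele of Pit1, the POU factor of growth hormone, prolactin and thyrotropin cells, on strain DW/J, and the Pit1+/+ pools are the wild type of that strain. All mice had a high fat chow. The number and sex of the pups in each pool are not stated in the labels. Wild-type pools of strain DF/B are not analysed here, so that in both comparisons of Prop1df/df the strain and the genotype cannot be told apart. In RNA of a whole organ, fewer cells of a type and less RNA per cell cannot be told apart either.

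Some pools stand apart from their labels or from their group. Growth hormone (Gh), which both dwarf mutants are known to lack nearly completely, read 13.58, 14.07, 14.03, 8.99 and 10.24 in Prop1df/df pools 1 to 5, 9.76, 9.13, 7.75, 7.15 and 10.31 in the Pit1dw/dw pools, and 14.22, 14.26, 14.19, 14.28 and 14.15 in the Pit1+/+ pools (log2 signal). By Gh, Prop1df/df pools 1 to 3 thus lay near Pit1+/+, against what is known of the label, and pools 4 and 5 lay with Pit1dw/dw. By other hormone and receptor genes pools 1 to 3 lay apart from Pit1+/+: the glycoprotein hormone subunit Cga read 11.32 to 11.86 there and 12.58 to 13.07 in Pit1+/+, and of genes chosen after their values were seen the thyrotropin subunit Tshb read 9.68 to 9.89 and 11.67 to 12.29, the receptor Ghrhr 5.98 to 7.69 and 9.45 to 9.85, and the luteinizing hormone subunit Lhb 5.71 to 6.13 and 7.71 to 10.19. In Prop1df/df pools 4 and 5 Tshb read 6.28 and 7.17, and Ghrhr 4.77 and 5.06. In both genes pools 1 to 3 thus lay between pools 4 and 5 and Pit1+/+. Cga read 11.15 and 10.61 in pools 4 and 5, and Lhb 7.45 and 3.66. Calls on Prop1df/df were therefore also tried without pools 1 to 3 and without pools 4 and 5. For some calls only whether they were kept is given. The name means the pools so labelled. Pit1 (Pou1f1) itself was not analysed here. Pit1+/+ pool 1 has a genotype entry of Prop1df/df, while its title, strain and source all name Pit1+/+, and it was kept there. Prph, a filament gene of peripheral neurons, lay above 7 in 5 pools, Prop1df/df pools 3 and 4, Pit1dw/dw pools 2 and 3 and Pit1+/+ pool 3. The arrays' medians ran between 4.31 and 4.43, and the number of arrays limits the precision.

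The Prop1df/df pools read higher than the Pit1+/+ pools in Col2a1, Col11a1 and Col9a1, chains of cartilage fibrils, and in Col3a1, of soft connective tissue. They read lower in Col12a1, Col24a1, Col22a1, Col25a1 and Col13a1, and the Pit1dw/dw pools read lower in Col24a1. The calls of Col3a1, Col9a1 and Col13a1 against Pit1+/+ were lost in 23, 18 and 16 of 30 alternative settings. Prop1df/df minus Pit1+/+ gave 9 of 42 collagen genes past an adjusted p of 0.05 (21.4%, against 10.6% of all genes tested), with 4 higher (3.25% of all genes were higher) and 5 lower (7.31% of all genes). For 7 members the values of the groups were fully separate (8.01% of all genes). The median log2 change of the 42 was 0.24, against -0.04 over all genes, with 30 positive and 12 negative. Pit1dw/dw minus Pit1+/+ gave 1 of 42 (2.38%, against 0.77% of all genes), which was lower (0.605% of all genes), and 3 members with separate groups (2.78% of all genes). Its median was 0.11, against -0.02. Prop1df/df minus Pit1dw/dw gave 5 of 42 (11.9%, against 6.26% of all genes), 4 higher (2.21%) and 1 lower (4.05%), and 7 with separate groups (8.5%). That count ran from 2 (without Pit1dw/dw pool 2 or 4) to 6 on leaving out 1 pool, with 3 without Prop1df/df pool 2 or 5 or Pit1dw/dw pool 1 or 3, and it was 1 with the probe sets of a gene averaged. Col2a1 was called in each of these. The 3 comparisons share pools, so their calls are not independent of each other.

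**Figure D1:**
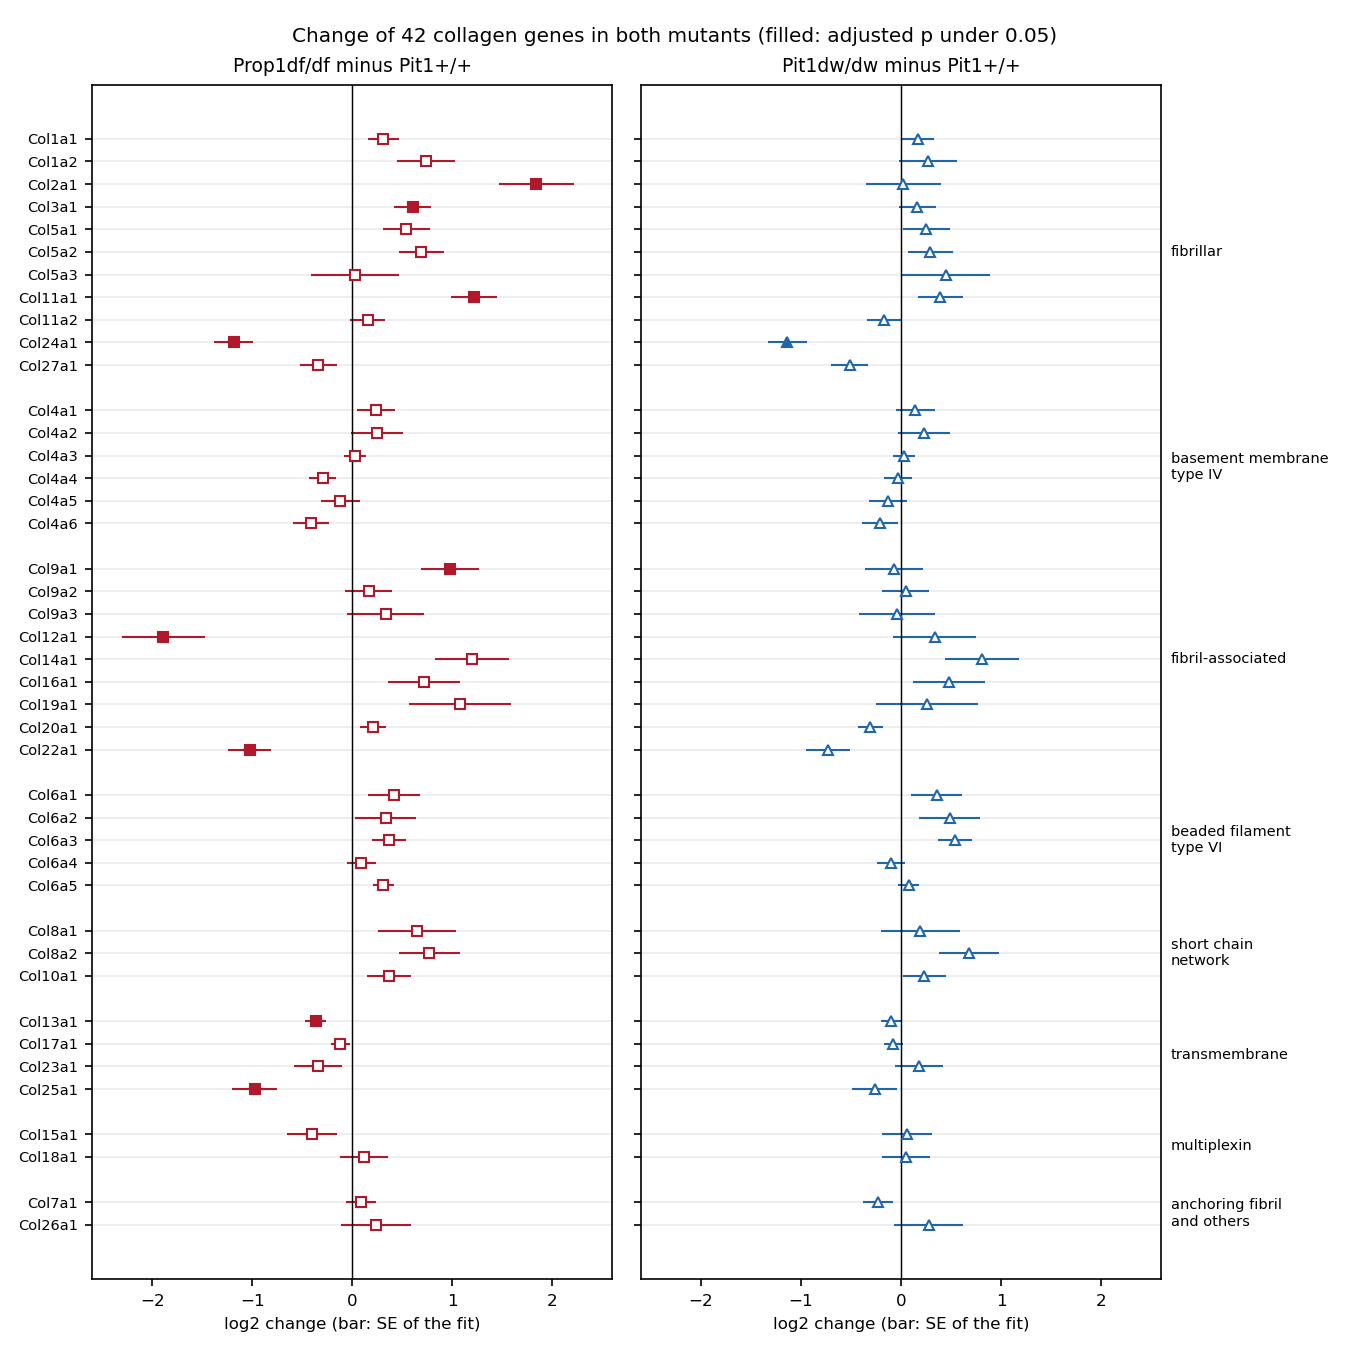
Log2 change of each of the 42 collagen genes in Prop1df/df minus Pit1+/+ (left panel) and Pit1dw/dw minus Pit1+/+ (right panel), by class, with the standard error of the fit as bars and filled symbols for genes past the threshold. There are 9 filled symbols on the left, between Col12a1 at -1.89 and Col2a1 at 1.84, and 1 on the right, Col24a1 at -1.14.

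Col2a1 encodes the only chain of type II collagen, the main fibril of cartilage. It read 8.28, 8.73, 8.21, 8.51 and 10.51 in Prop1df/df pools, 6.73, 6.92, 7.35, 6.71 and 7.42 in Pit1dw/dw pools and 7.57, 6.67, 7.17, 7.39 and 6.23 in Pit1+/+ pools. Every Prop1df/df pool lay above every pool of the other groups, and pool 5 was the highest. The change against Pit1+/+ was 1.84 (SE 0.38, 3.59-fold, adjusted p = 0.00463) and against Pit1dw/dw 1.82 (SE 0.38, 3.53-fold, adjusted p = 0.00709). In Pit1dw/dw minus Pit1+/+ it was 0.02, with a 95% interval of -0.78 to 0.82. The call against Pit1+/+ was kept in all 29 alternative settings that measure the gene, with changes of 1.12 to 2.50, among them 2.50 without the pools high in Gh (adjusted p = 0.00807), 1.40 without the pools low in Gh (0.00898) and 1.43 without pool 5 (0.00242), in a range of 0.00215 to 0.0486.

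Col11a1 encodes a chain of type XI collagen, which starts and limits cartilage fibrils. It read 8.98, 8.53, 8.93, 8.40 and 9.28 in Prop1df/df pools, 7.93, 7.85, 7.86, 7.98 and 8.38 in Pit1dw/dw pools and 8.16, 6.93, 7.26, 8.12 and 7.55 in Pit1+/+ pools, again with no overlap between Prop1df/df and either other group. The change was 1.22 against Pit1+/+ (SE 0.23, 2.33-fold, adjusted p = 0.00275) and 0.82 against Pit1dw/dw (SE 0.23, adjusted p = 0.0443). Its second probe set changed by 0.31 against Pit1+/+ and was not called, and neither was Col11a2, another type XI chain, which is dim (0.15). Col9a1, a chain of the type IX collagen that coats type II fibrils, read 7.63, 8.14, 7.70, 7.84 and 9.32 in Prop1df/df pools, 6.97, 7.02, 6.95, 6.90 and 7.56 in Pit1dw/dw pools and 7.77, 6.65, 7.37, 7.25 and 6.73 in Pit1+/+ pools. Prop1df/df lay above every Pit1dw/dw pool and overlapped Pit1+/+ in pools 1 and 3. The change was 0.98 against Pit1+/+ (SE 0.29, adjusted p = 0.0423) and 1.05 against Pit1dw/dw (SE 0.29, adjusted p = 0.0435). A second probe set of Col9a1, which is dim, changed by 0.14 and 0.35 in these comparisons and was not called. With the probe sets of a gene averaged, Col9a1 was called in neither. The other chains of type IX were not called: Col9a2 changed by 0.16 and Col9a3 by 0.33 against Pit1+/+. Other collagens of cartilage were not called either, with a change of 0.37 for Col10a1, the collagen of hypertrophic cartilage, and of -0.34 (adjusted p = 0.285) for Col27a1, a fibrillar collagen of developing cartilage. A second probe set of Col27a1 changed by 0.10 and was not called, so the sign for this gene depends on the probe set.

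These 2 calls were less firm than that of Col2a1. Without the pools high in Gh, Col11a1 changed by 1.23 against Pit1+/+ (adjusted p = 0.0512, in a range of 0.00162 to 0.0551 over 30 alternatives) and Col9a1 by 1.43 (0.0452), while without the pools low in Gh they changed by 1.21 (0.0122) and 0.67 (0.125). The Col9a1 call against Pit1+/+ was lost in 18 of 30 alternatives (0.0276 to 0.263), among them on leaving out Prop1df/df pool 2 or 5, Pit1+/+ pool 2, 3, 4 or 5 or Pit1dw/dw pool 1, 2, 3 or 4 in turn (0.0532 to 0.112). Against Pit1dw/dw, Col11a1 was lost in 15 of 30 (0.0136 to 0.258), with Prop1df/df pool 1, 2, 3 or 5 or Pit1dw/dw pool 1, 2, 3 or 4 left out among them (0.05 to 0.111). Col9a1 was lost there in 15 of 30 too (0.00666 to 0.134), with Prop1df/df pool 2 or 5, Pit1dw/dw pool 1, 2, 3 or 4 or Pit1+/+ pool 3 or 4 left out among them (0.0501 to 0.101).

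**Figure D2:**
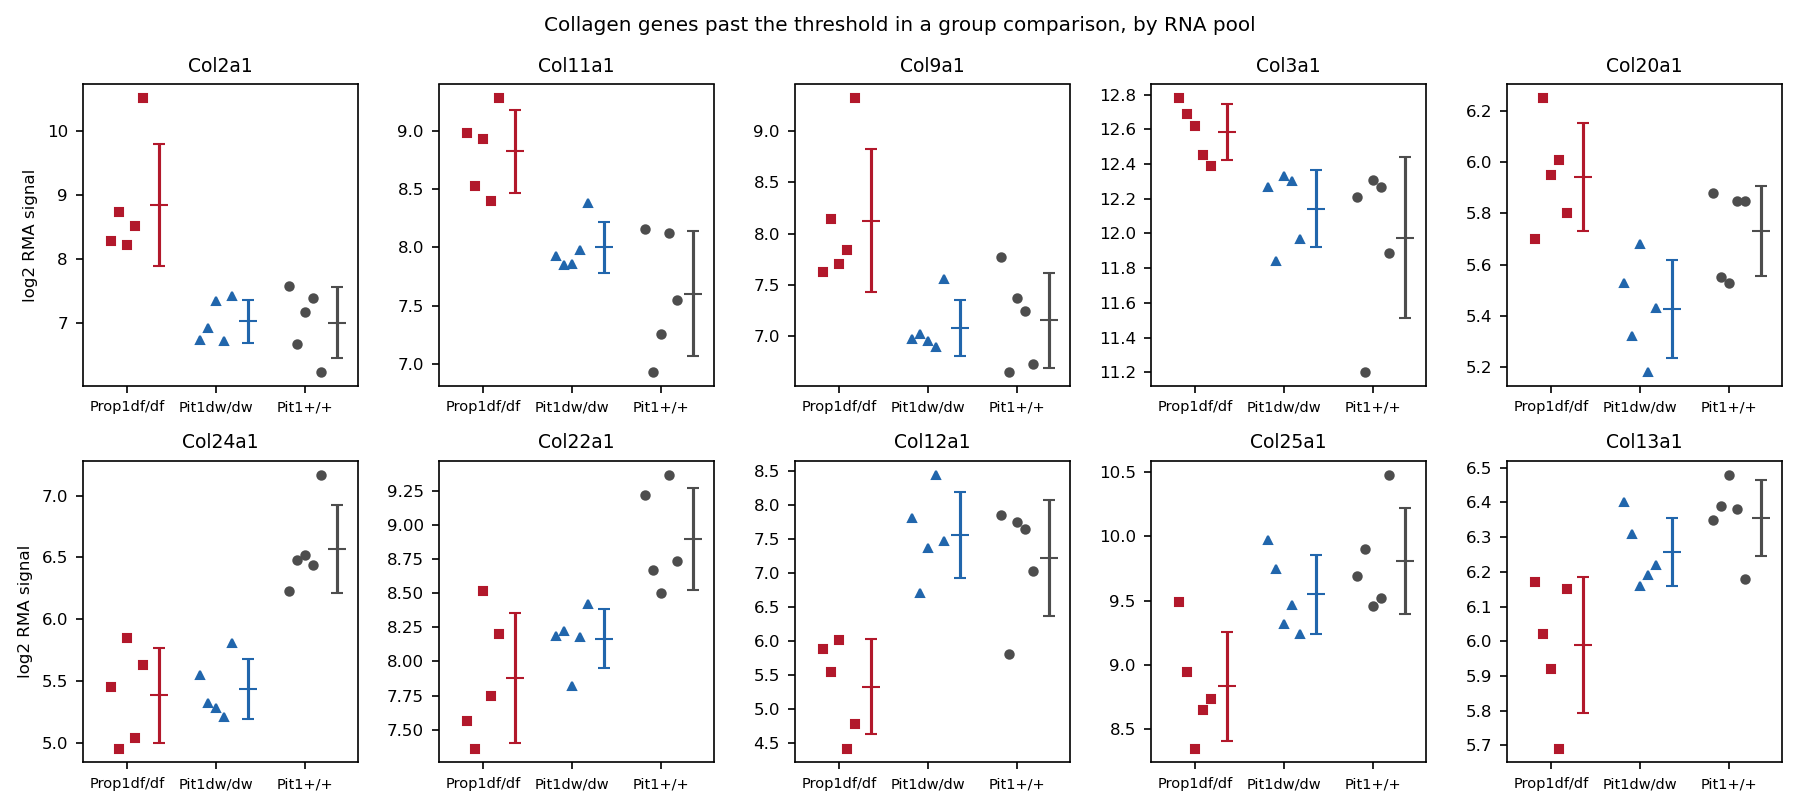
Log2 signal of the 10 collagen genes past the threshold in a group comparison, with 1 symbol per RNA pool (pools 1 to 5 from left to right in each group) and the mean ± SD beside them (n = 5 per group). The upper row holds genes higher in Prop1df/df in a comparison, the lower row genes lower in it, and Prop1df/df pool 5 of Col2a1 stands at 10.51.

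Col24a1 encodes a fibrillar collagen described in mice from developing bone and eye. It read 5.45, 4.95, 5.85, 5.04 and 5.63 in Prop1df/df pools, 5.55, 5.32, 5.28, 5.21 and 5.81 in Pit1dw/dw pools and 6.23, 6.48, 6.52, 6.44 and 7.17 in Pit1+/+ pools. All 10 mutant pools lay below all 5 wild-type pools. The change was -1.19 in Prop1df/df minus Pit1+/+ (SE 0.20, 2.27-fold lower, adjusted p = 0.00111) and -1.14 in Pit1dw/dw minus Pit1+/+ (SE 0.20, 2.20-fold lower, adjusted p = 0.00968). Between the mutants it was -0.05, with a 95% interval of -0.47 to 0.37. The Prop1df/df call was kept in all 30 alternatives, with -1.24 without the pools high in Gh (adjusted p = 0.0132, in a range of 0.000181 to 0.0153). The Pit1dw/dw call was kept in 29 of 30 and lost without the 5 pools high in Prph (-1.06, adjusted p = 0.187, against 0.00134 to 0.0361 in the others). A single probe set measures this gene.

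Col22a1 encodes a fibril-associated collagen of tissue junctions, known from the join of muscle and tendon. It read 7.56, 7.36, 8.52, 7.75 and 8.20 in Prop1df/df pools, 8.19, 8.22, 7.82, 8.18 and 8.42 in Pit1dw/dw pools and 9.22, 8.67, 8.50, 9.37 and 8.74 in Pit1+/+ pools. Only Prop1df/df pool 3 reached the wild-type range, and no Pit1dw/dw pool did. The change was -1.03 in Prop1df/df minus Pit1+/+ (SE 0.22, 2.04-fold lower, adjusted p = 0.00612), and a second probe set, with a change of -1.09, was called too. That call was kept in all 30 alternatives (adjusted p 0.000213 to 0.0465). In Pit1dw/dw minus Pit1+/+ the change was -0.73 (SE 0.22, adjusted p = 0.216), short of the threshold, and it passed in 1 alternative, with array weights. Col27a1 did not overlap in that comparison either, with a change of -0.51 (SE 0.19, adjusted p = 0.387).

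Col12a1 encodes a fibril-associated collagen of dense connective tissue that bridges type I fibrils. It read 5.89, 5.54, 6.02, 4.42 and 4.78 in Prop1df/df pools, 7.80, 6.70, 7.36, 8.44 and 7.47 in Pit1dw/dw pools and 7.85, 5.81, 7.74, 7.65 and 7.02 in Pit1+/+ pools. All Prop1df/df pools lay below all Pit1dw/dw pools and below 4 of the 5 Pit1+/+ pools. The change was -1.89 against Pit1+/+ (SE 0.41, 3.70-fold lower, adjusted p = 0.00761) and -2.22 against Pit1dw/dw (SE 0.41, 4.67-fold lower, adjusted p = 0.00331). The 3 other probe sets of Col12a1, all below the median signal, changed by 0.40, 0.31 and 0.12 against Pit1+/+ and were not called, and with the mean of the 4 the change was -0.26 (adjusted p = 0.366, in a range of 2.48e-06 to 0.366). Without the pools high in Gh it was -2.62 (adjusted p = 0.0119), and without those low in Gh -1.40 (0.0757).

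Both other falls were in transmembrane collagens, which sit in the cell membrane and can be shed from it. Col25a1, a collagen made by neurons, read 9.49, 8.95, 8.35, 8.65 and 8.74 in Prop1df/df pools, 9.97, 9.75, 9.32, 9.47 and 9.24 in Pit1dw/dw pools and 9.69, 9.90, 9.46, 9.52 and 10.48 in Pit1+/+ pools. Only Prop1df/df pool 1 reached the wild-type range. The change was -0.97 (SE 0.22, 1.96-fold lower, adjusted p = 0.0103). It was -1.11 without the pools high in Gh (0.0301) and -0.88 without those low in Gh (0.0742), in a range of 0.00348 to 0.0957 over 30 alternatives. Of these, 5 lost the call, among them the mean of all probe sets of a gene. A second probe set of Col25a1, which is dim, changed by 0.09 and was not called. Col13a1, known from the neuromuscular junction, read 6.17, 6.02, 5.92, 5.69 and 6.15 in Prop1df/df pools, 6.40, 6.31, 6.16, 6.19 and 6.22 in Pit1dw/dw pools and 6.35, 6.39, 6.48, 6.38 and 6.18 in Pit1+/+ pools. No Prop1df/df pool reached the lowest Pit1+/+ pool. The change was small, -0.37 (SE 0.10, adjusted p = 0.0347), and the call was lost in 16 of 30 alternatives (0.00545 to 0.313), among them without Prop1df/df pool 2, 3 or 4 or Pit1+/+ pool 1, 2, 3 or 4 (0.0591 to 0.0796) and without the pools high in Gh (-0.44, 0.123) or low in Gh (-0.32, 0.101). Of the other transmembrane collagens, Col23a1 changed by -0.35 and Col17a1, which is dim, by -0.12, neither past the threshold. The other probe sets of Col23a1 changed the other way, by 0.19 and 0.18, and were not called.

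Col3a1, the fibrillar collagen of vessel walls and soft connective tissue, read 12.78, 12.69, 12.62, 12.45 and 12.39 in Prop1df/df pools, 12.27, 11.84, 12.33, 12.30 and 11.97 in Pit1dw/dw pools and 12.21, 11.20, 12.31, 12.27 and 11.89 in Pit1+/+ pools. Every Prop1df/df pool lay above every other pool, and Pit1+/+ pool 2 was the lowest. The change was 0.61 (SE 0.19, 1.52-fold, adjusted p = 0.0495). The call was lost in 23 of 30 alternatives (0.0264 to 0.516), among them on leaving out any 1 Prop1df/df pool, any 1 Pit1dw/dw pool or Pit1+/+ pool 1, 2 or 5 (0.053 to 0.116), without the pools high in Gh (0.44, 0.431) or low in Gh (0.72, 0.0755), and with the fibroblast and meninges marker mean as a covariate (0.19, 0.516).

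The remaining fibrillar and fibril-associated chains of loose connective tissue did not pass against Pit1+/+. Type I collagen, the main fibril of bone, skin and capsule, has the chains Col1a1, with a change of 0.31 (adjusted p = 0.242), and Col1a2, with 0.74 (0.124). Of type V, which sets the width of type I fibrils, Col5a1 changed by 0.54 (0.164) and Col5a2 by 0.69 (0.0631), the second with no overlap between Prop1df/df (10.30 to 10.96) and Pit1+/+ (8.95 to 10.29). Col14a1, which lies on type I fibrils of skin and tendon, read 8.42 to 9.37 in Prop1df/df and 6.20 to 8.42 in Pit1+/+, with a change of 1.20 (SE 0.37, adjusted p = 0.0502). Col16a1, a fibril-associated collagen, changed by 0.72 (0.236).

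Pit1+/+ pool 2 was the lowest wild-type pool in much of this group. It read 10.66 in Col1a2, where the other Pit1+/+ pools read 12.21 to 12.65, 6.04 in Col8a1, where they read 7.95 to 8.42, and 6.20 in Col14a1, where they read 7.52 to 8.42. The mean of 12 markers of fibroblasts and meninges was also lowest there, at 7.12, and ran from 8.34 to 8.78 in Prop1df/df pools, 7.81 to 8.70 in Pit1dw/dw pools and 7.12 to 8.53 in Pit1+/+ pools. Of those 12 markers, 5 rose in Prop1df/df against Pit1+/+, where 3.25% of all genes were higher. Among the 5 were decorin (Dcn, log2 change 0.55, adjusted p = 0.00725), Twist1 (0.81, 0.0351) and lumican (Lum, 0.96, 0.0430). With the marker mean as a covariate the median change of the 42 collagens was -0.02 in Prop1df/df minus Pit1+/+, against 0.24 without it. In that fit 4 members were called (Col12a1, Col22a1, Col24a1 and Col2a1), and the count over all genes is given in the last section. Without Pit1+/+ pool 2 the Col3a1 change was 0.41 (adjusted p = 0.0827, in the range given above).

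Directly between the mutants, Prop1df/df minus Pit1dw/dw, the 5 calls were Col2a1, Col11a1, Col9a1 and Col20a1 as higher and Col12a1 as lower. Col20a1, a fibril-associated collagen, read 5.70, 6.25, 5.95, 6.01 and 5.80 in Prop1df/df pools, 5.53, 5.32, 5.68, 5.18 and 5.43 in Pit1dw/dw pools and 5.88, 5.55, 5.53, 5.85 and 5.85 in Pit1+/+ pools. The mutants did not overlap, and the wild-type pools lay across both. The change was 0.51 (SE 0.13, adjusted p = 0.0247), lost in 14 of 30 alternatives (0.00318 to 0.184), among them without Prop1df/df pool 2 or 4 or Pit1dw/dw pool 2, 4 or 5 (0.0503 to 0.0757). The call was also lost with the probe sets of a gene averaged and with those of an _x, _s or _a suffix left out. Other probe sets of Col20a1, all dim, changed by 0.44, -0.12 and 0.53 and were not called. Without the pools high in Gh, and likewise without those low in Gh, 2 of the 5 calls were made, Col12a1 and Col2a1 in either case.

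Promoter sequence was at hand for 33 of the 42 members in a RefSeq table of build GRCm38.p6, and for 7 of the 10 called ones. The bases upstream of the gene start are printed for the 4 called genes with at least 180 of them, to set the gene lower in both mutants beside 3 that were higher in Prop1df/df. All are on the plus strand and are printed 5′ to 3′. Capitals mark matches, on either strand and with overlaps allowed, to the TATA box TATAAA, to the box CCAAT, to the SOX site core ACAAT and to the POU octamer ATGNAAAT.
Col24a1, chr3:145292222-145292471: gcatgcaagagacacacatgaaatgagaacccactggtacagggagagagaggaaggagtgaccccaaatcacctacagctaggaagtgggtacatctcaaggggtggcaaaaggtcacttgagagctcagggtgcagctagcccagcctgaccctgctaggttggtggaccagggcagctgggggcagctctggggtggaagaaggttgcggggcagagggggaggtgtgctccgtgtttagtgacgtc
Col11a1, chr3:114030290-114030478: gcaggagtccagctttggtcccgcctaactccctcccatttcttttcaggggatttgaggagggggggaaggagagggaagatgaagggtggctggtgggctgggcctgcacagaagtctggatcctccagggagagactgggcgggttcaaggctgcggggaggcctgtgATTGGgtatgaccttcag
Col9a1, chr1:24177360-24177588: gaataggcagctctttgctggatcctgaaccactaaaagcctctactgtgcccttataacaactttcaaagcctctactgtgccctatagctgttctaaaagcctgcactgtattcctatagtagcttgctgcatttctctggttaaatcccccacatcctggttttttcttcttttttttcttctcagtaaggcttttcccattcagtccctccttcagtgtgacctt
Col3a1, chr1:45311288-45311537: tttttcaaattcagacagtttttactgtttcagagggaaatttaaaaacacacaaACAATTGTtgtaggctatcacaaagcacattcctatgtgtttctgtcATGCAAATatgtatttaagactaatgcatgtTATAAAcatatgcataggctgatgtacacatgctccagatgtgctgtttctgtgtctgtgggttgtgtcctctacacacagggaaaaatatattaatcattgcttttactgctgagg
The 250 bases before Col24a1 (58.0% G or C) hold none of the 4 motifs, nor do the 229 before Col9a1 (43.2%). The 189 bases before Col11a1 (60.3%) hold 1 CCAAT match, read on the minus strand, as do 26.5% of all 32851 promoters in a stretch of that length. The 250 bases before Col3a1 (35.2%) hold 1 TATAAA, found in 12.4% of promoters, 2 overlapping ACAAT matches on opposite strands, found in 27.7%, and 1 octamer match, found in 5.03%. The matches are letters only and say nothing on whether a factor binds.

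By limma, 0 of the 6 type IV chains were called in any of the 3 comparisons, where 10.6%, 0.77% and 6.26% of all genes were called, so that 0 of 6 lies near the background. Of the 6, 2 had an unadjusted p under 0.05 in Prop1df/df minus Pit1+/+ and 0 in the other comparisons. Col4a1 and Col4a2, the chains of every basement membrane, averaged 11.82 ± 0.19 and 11.09 ± 0.22 in Prop1df/df, 11.72 ± 0.18 and 11.08 ± 0.24 in Pit1dw/dw and 11.58 ± 0.49 and 10.85 ± 0.71 in Pit1+/+ (SD, n = 5 each). Their changes against Pit1+/+ were 0.24 (95% interval -0.17 to 0.65) and 0.24 (-0.31 to 0.80) in Prop1df/df, and 0.14 (-0.27 to 0.55) and 0.23 (-0.33 to 0.78) in Pit1dw/dw. Col4a3, Col4a4, Col4a5 and Col4a6, chains of more specialised membranes, changed by 0.03, -0.30, -0.12 and -0.41 in Prop1df/df minus Pit1+/+. Of the multiplexins, collagens of the vessel and epithelial basement membrane, Col18a1 changed by 0.12 and Col15a1 by -0.40. Beside these, 0 of 14 endothelial markers were called in Prop1df/df minus Pit1+/+ (1 at an unadjusted p under 0.05), and of 9 pericyte and smooth muscle markers 1 was lower, the channel subunit Abcc9 (-1.92, adjusted p = 5.51e-05).

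The 5 type VI chains, which form beaded filaments around cells, were positive in Prop1df/df minus Pit1+/+ with 0 calls by limma and 2 at an unadjusted p under 0.05. Of all genes 10.6% were called there, so that 0 of 5 lies near the background. Col6a1, Col6a2 and Col6a3, the chains that build the common filament, changed by 0.42, 0.33 and 0.37 there, and by 0.36, 0.49 and 0.54 in Pit1dw/dw minus Pit1+/+ (adjusted p = 0.809, 0.743 and 0.268). Col6a3 ran from 8.72 to 9.17 in Prop1df/df, 8.92 to 9.49 in Pit1dw/dw and 8.24 to 9.14 in Pit1+/+. The short chain collagens of vessel walls and the cornea, Col8a1 and Col8a2, changed by 0.65 and 0.77 in Prop1df/df and by 0.19 and 0.68 in Pit1dw/dw. Col10a1 stayed dim in all groups, with means of 3.57, 3.43 and 3.20 in Prop1df/df, Pit1dw/dw and Pit1+/+. The members not described elsewhere changed little against Pit1+/+ in Prop1df/df: Col26a1 by 0.24, Col7a1 by 0.09, Col6a4 by 0.09 and Col6a5 by 0.31, the last 3 of them dim.

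Signals of marker genes of neighbouring tissue differed between pools, and a few collagens varied with them. Whether the amount of such tissue differed was not tested. Ibsp, a bone matrix gene, read 9.92, 7.50, 9.86, 7.61 and 10.79 in Prop1df/df pools, 7.84, 6.94, 4.52, 4.09 and 10.07 in Pit1dw/dw pools and 9.69, 3.03, 3.13, 9.48 and 8.75 in Pit1+/+ pools, so that every Prop1df/df pool lay well above the median of all values, while 2 Pit1dw/dw pools (3 and 4) and 2 Pit1+/+ pools (2 and 3) lay near or below it. The mean of 9 bone markers averaged 5.90 ± 0.67 in Prop1df/df, 5.03 ± 0.77 in Pit1dw/dw and 5.16 ± 1.00 in Pit1+/+, and that of 12 cartilage markers 5.30 ± 0.53, 4.95 ± 0.30 and 4.78 ± 0.33. By group mean, 6 of the 12 cartilage markers lay below the median of all values in Prop1df/df, and 7 in Pit1dw/dw and in Pit1+/+. Of the 9 bone markers 3 did so in Prop1df/df, and 4 in Pit1dw/dw and in Pit1+/+. Of the cartilage markers, 1 rose in Prop1df/df against Pit1+/+, where 3.25% of all genes were higher. It was the matrilin Matn1, which is dim (0.59, adjusted p = 0.0340). Of the 12, 11 were positive, with a median of 0.61, and 5 had an unadjusted p under 0.05. Next to Matn1 stood the link protein Hapln1 (0.91, adjusted p = 0.0590) and the proteoglycan Epyc (0.90, 0.0535), short of the threshold. By limma 0 of the 9 bone markers rose, beside the same 3.25% of all genes, and 2 had an unadjusted p under 0.05. The changes were 2.32 for Ibsp and 0.62 for the cartilage proteoglycan Acan, both short of the threshold. The highest cartilage mean, 6.19, was that of Prop1df/df pool 5, which is also the highest in Col2a1 and Col9a1. With the bone and cartilage means as covariates, Col2a1 changed by 1.12 (adjusted p = 0.00894), Col11a1 by 0.81 (0.0028) and Col9a1 by 0.37 (0.164) in Prop1df/df minus Pit1+/+.

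Within groups, the slope of each gene on a marker mean measures how far it moved with those markers from pool to pool. On the bone mean, 1 of 42 collagens was called (0.0934% of all genes), Col11a1, with 0.43 log2 units per unit of the mean (SE 0.07, adjusted p = 0.0158). On the cartilage mean it was Col9a1 (0.0165% of all genes), with 1.17 (SE 0.16, adjusted p = 0.0237), while Col2a1 had 1.38 (SE 0.26, adjusted p = 0.229). The Col11a1 slope was not called without Prop1df/df pool 4 or without Pit1+/+ pool 1, 2 or 4, nor that of Col9a1 without Prop1df/df pool 2 or 5, Pit1+/+ pool 1, 2 or 4 or any 1 Pit1dw/dw pool, with 0 calls in each case. On the ganglion and Schwann cell mean 2 of 42 were called (8.05% of all genes), 1 positive (6.44%) and 1 negative (1.61%), and they are among the members that vary most between pools.

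Col5a3, a type V chain known from peripheral nerve, rose with that mean (slope 0.43, SE 0.07, adjusted p = 0.00068). It read 4.07, 4.51, 5.02, 4.96 and 3.63 in Prop1df/df pools, 4.64, 4.51, 5.65, 4.94 and 4.58 in Pit1dw/dw pools and 4.51, 3.46, 6.25, 4.23 and 3.63 in Pit1+/+ pools. The highest pool of each group is one of the 5 high in Prph, and the groups overlap throughout. Col19a1, a fibril-associated collagen of basement membrane zones, fell as the mean rose (slope -0.42, SE 0.11, adjusted p = 0.0207). It read 6.80, 6.24, 5.63, 5.54 and 7.75 in Prop1df/df pools, 7.05, 5.78, 5.26, 5.03 and 4.76 in Pit1dw/dw pools and 4.74, 5.72, 4.13, 5.48 and 6.49 in Pit1+/+ pools, the widest spread of any member (within-group SD 0.91). The call of Col19a1 was lost without Prop1df/df pool 3 or Pit1+/+ pool 3, which left Col5a3 as the single call, and without Prop1df/df pool 5, where Col9a3 was called in its place.

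**Figure D3:**
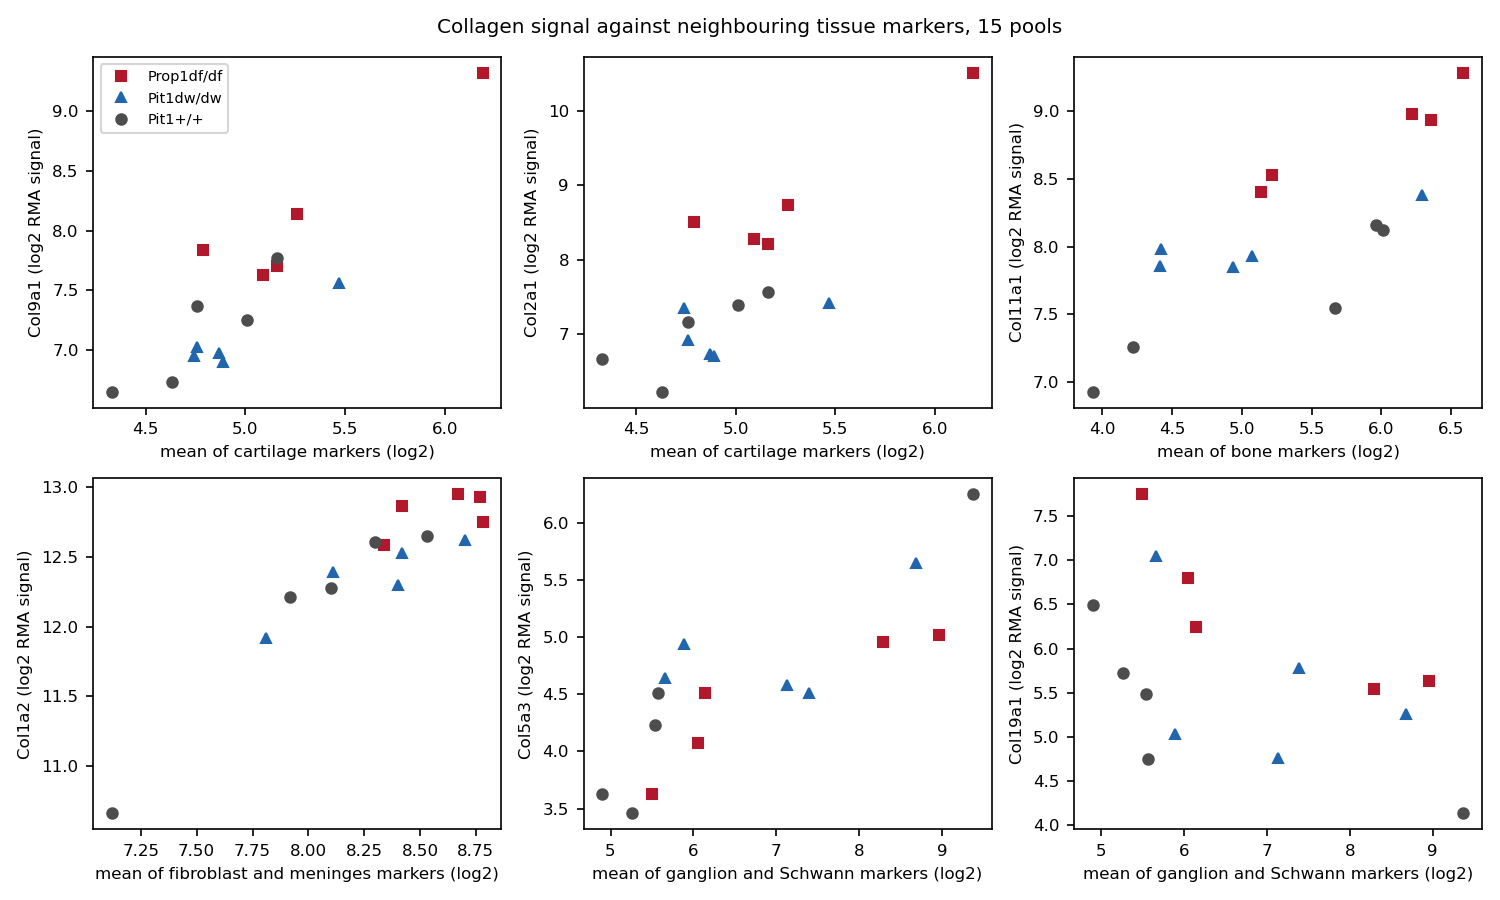
Log2 signal of 6 collagen genes against the mean log2 signal of a marker list, 1 symbol per pool, coloured by group. Col9a1 and Col2a1 are set against cartilage, Col11a1 against bone, Col1a2 against fibroblasts and meninges, and Col5a3 and Col19a1 against ganglion and Schwann cells, where Pit1+/+ pool 3 lies farthest right at 9.37.

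**Figure D4:**
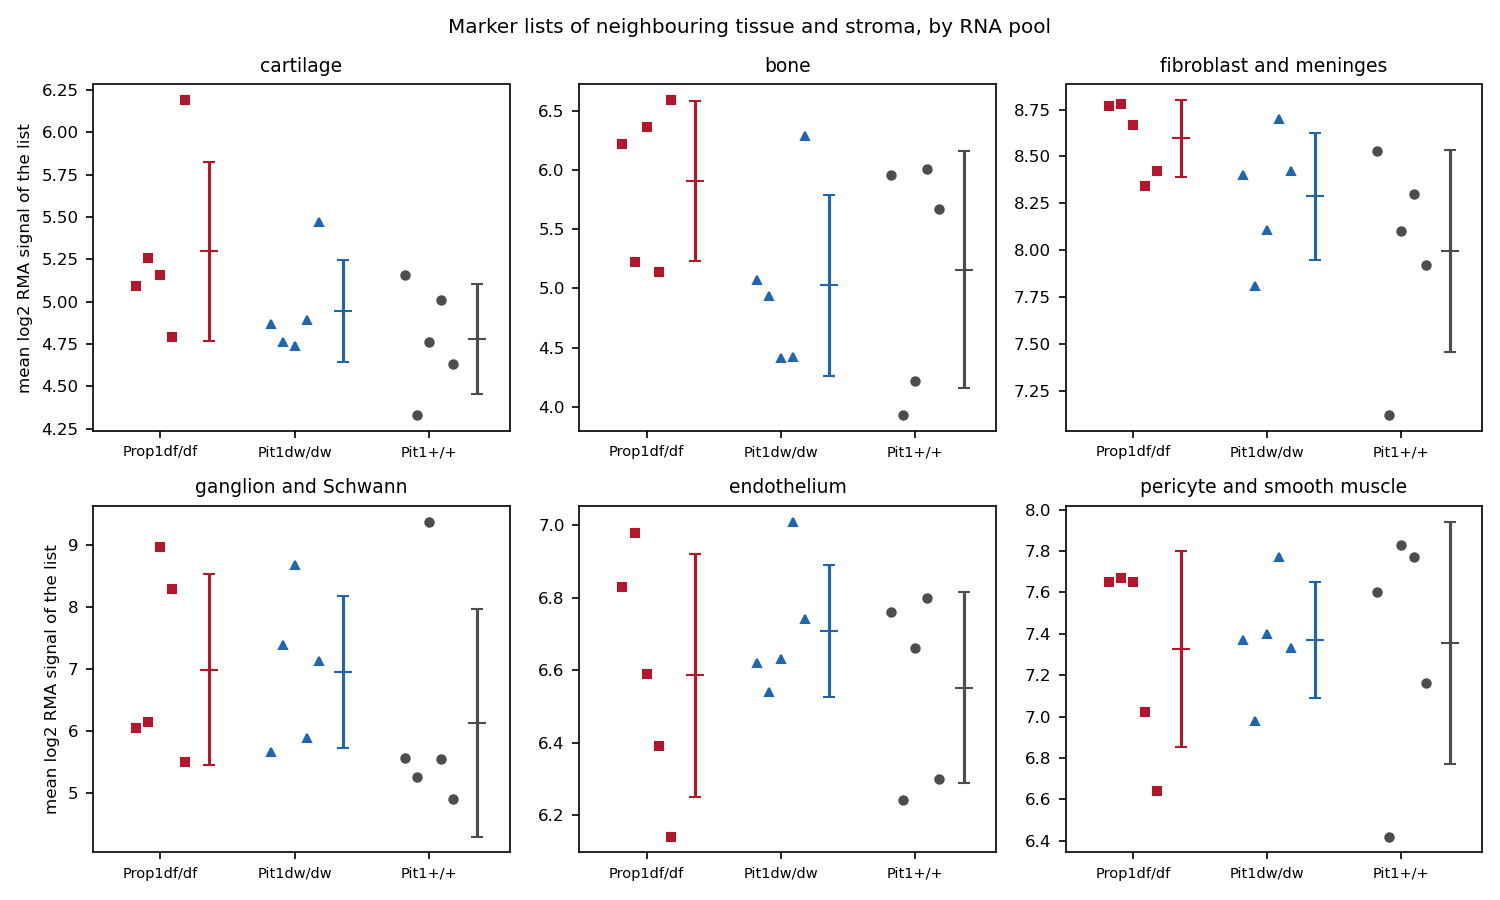
Mean log2 signal of 6 marker lists in each pool, with the group mean ± SD (n = 5). Prop1df/df pool 5 is highest for cartilage at 6.19, and Pit1+/+ pool 2 is lowest for fibroblasts and meninges at 7.12.

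Signals of chains that build the same molecule correlated from pool to pool to different degrees. Pairs of chains from different molecules were not tested, so the correlations cannot be taken as particular to chains of the same molecule. Of 12 such pairs, deviations from the group mean over 15 pools correlated most in type I (Col1a1 and Col1a2, Pearson's r = 0.98, Spearman's rho = 0.92, adjusted p = 0.0006 and 0.0018 by permutation within groups), type VI (Col6a1 and Col6a2, 0.97 and 0.95, adjusted p = 0.00036 and 0.0016 by permutation), type IV (Col4a1 and Col4a2, 0.95 and 0.91, 0.0006 and 0.0033 by permutation) and type VIII (Col8a1 and Col8a2, 0.94 and 0.87, 0.0006 and 0.0018 by permutation). Without the 2 pools farthest from the median of the first chain, r was 0.88, 0.94, 0.90 and 0.84 in these pairs. Col5a1 and Col5a2 gave 0.74 and 0.65 (0.01 and 0.029 by permutation), and r = 0.66 without 2 pools. Col6a3 followed Col6a1 with 0.84 and 0.81 (0.01 and 0.015 by permutation) and Col6a2 with 0.78 and 0.75 (0.033 and 0.029 by permutation), with r of 0.85 and 0.73 without 2 pools.

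The cartilage chains were less tightly tied. Col9a2 and Col9a3 gave 0.65 and 0.57 (adjusted p = 0.022 and 0.055 by permutation), and r = 0.60 without 2 pools. Col9a1 gave 0.53 and 0.51 with Col9a2 (0.13 and 0.13 by permutation) and 0.58 and 0.49 with Col9a3 (0.065 and 0.13 by permutation), and without 2 pools r was 0.32 and 0.44. Col2a1 and Col11a1, whose products meet in type XI molecules, gave 0.52 and 0.42 (0.083 and 0.20 by permutation), and r = 0.27 without 2 pools. Col4a5 and Col4a6, neighbours on the X chromosome whose products share trimers, gave 0.20 and 0.08 (0.51 and 0.79 by permutation), and r = 0.09 without 2 pools. Pools of a group share its strain and arrays the normalization, and Pit1+/+ pool 2 is the lowest point in 3 of the 4 closest pairs.

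**Figure D5:**
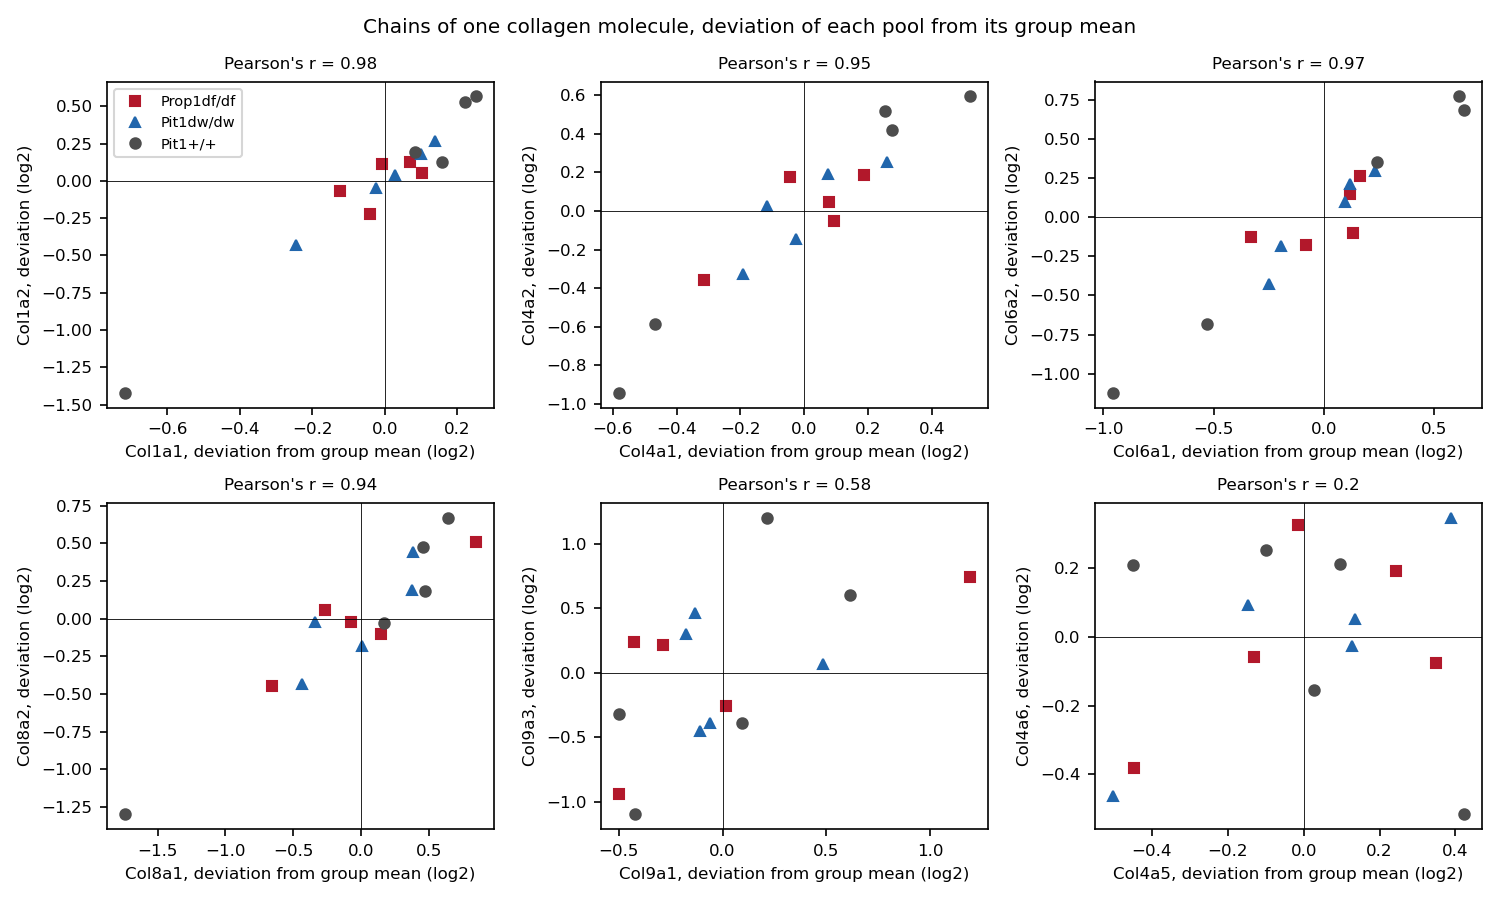
Deviation of each pool from its group mean (log2) for 6 pairs of collagen chains of the same molecule, with Pearson's r above each panel. The pairs of type I, IV, VI and VIII lie near a line, with r of 0.94 to 0.98, while Col9a1 with Col9a3 (0.58) and Col4a5 with Col4a6 (0.20) scatter.

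Genes that make, fold, process and break down collagen were counted in 7 lists, to be read beside the share called over all genes, 10.6% in Prop1df/df minus Pit1+/+ and 0.77% in Pit1dw/dw minus Pit1+/+. In Prop1df/df minus Pit1+/+ the proline isomerase Ppib was the only one of 15 hydroxylases and their partners to pass and was higher (0.62, adjusted p = 0.0115), and of 12 chaperones and export factors only Mia3, which loads procollagen into carriers, passed and was lower (-0.45, 0.0283). Of 10 propeptide proteases and cross-linking enzymes, Pcolce2, an enhancer of propeptide cleavage, was lower in Prop1df/df (-0.66, 0.0233) and in Pit1dw/dw (-1.23, SE 0.17, adjusted p = 0.00211), the single call of those 10 in either comparison. Of 13 fibril-binding proteoglycans, Dcn and Lum were higher in Prop1df/df, as given above, and 0 of 9 collagen receptors were called by limma (3 at an unadjusted p under 0.05). Of 12 genes of collagen breakdown, 3 were higher in Prop1df/df: the metalloprotease Mmp16 (0.79, 0.0318) and the protease inhibitors Timp3 (0.71, 0.00811) and Timp2 (0.68, 0.0376). Timp3 was also higher in Pit1dw/dw (0.74, 0.0396). Of 17 other basement membrane genes, the crosslinking peroxidase Pxdn was lower in Prop1df/df (-0.36, 0.0184). The median change of these 7 lists in Prop1df/df minus Pit1+/+ ran from -0.06 for chaperones and export to 0.67 for the proteoglycans, beside -0.04 for all genes.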

How the data were processed

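Total pituitary RNA was labelled as biotin cRNA and hybridised to Affymetrix mouse arrays, per the labels. The deposited values are log2 RMA signals per the submitters' processing notes, with the version not given in the sources used here. RMA corrects background, normalises by quantiles and summarises probes. Values ran from 1.83 to 14.8. Of 45101 probe sets, 64 were controls, 34945 name a single gene, 932 several and 9160 none. The probe set with the highest mean stood for each of 18193 genes. The 3 group means were fitted together by limma 3.58.1 (R 4.3.3), two-sided, with Benjamini-Hochberg adjustment over all genes. Marker slopes came from the same fit with the marker mean added. Chain pairs used 100000 permutations within groups. The fit was tested on simulated data. Dim means a mean below 4.37.

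Members were chosen by symbol, and the members, lists and tests were chosen with earlier results of these data known. Named with values were all called members, the 10 with the highest mean, the 8 with the widest spread, type IV, VI and IX chains, and up to 3 members of each other list by adjusted p. Beside that, Col27a1 and the remaining members were named after their values were seen. In all 30 alternatives were tried, 4 of them chosen after seeing the data: leaving out pools with Prph above 7, Prop1df/df pools with Gh above 13 or below 11, and the fibroblast marker mean as a covariate. Same-numbered pools deviated from their group means with correlations of -0.374 to 0.656, so numbers were not taken as pairs. Figures were drawn with matplotlib 3.10.9.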

Additional observations from a re-analysis of the deposited data

Results flagged for a closer look

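In groups of 5 pools, a pool was singled out where its gap to the nearest pool exceeded 0.71 of the group's range (Dixon's 95% value). Chance alone singles out about 1 in 20 groups, and 13 of 159 were found here (8.18%), 9 of them in collagen genes.

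In Prop1df/df, pool 5 was high in Col2a1, at 10.51 with the next at 8.73, and its skeletal muscle marker mean, 4.39 with the next at 3.77, was high while dim. Prop1df/df pool 3 was high in Col5a1, at 9.27 against 8.83.

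In Pit1dw/dw, pool 5 was high in Col9a1 (7.56, next 7.02), in Col11a1 (8.38, next 7.98), in the cartilage marker mean (5.47, next 4.89) and in the osteoclast marker mean (5.86, next 4.44). Pit1dw/dw pool 2 was low in Col5a1 (8.17, next 8.64).

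In Pit1+/+, pool 2 was low in Col1a1 (11.75, next 12.55), Col1a2 (10.66, next 12.21) and Col8a1 (6.04, next 7.95). Pit1+/+ pool 5 was low in Col18a1 (7.73, next 8.89), and pool 3 was high in the ganglion and Schwann cell marker mean (9.37, next 5.57). What set these pools apart was not tested.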

How the results depend on the processing

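No called collagen changed direction in any of the 30 alternatives, and the cause of each shift below was not tested. Leaving out 1 pool at a time gave 6 to 9 collagens of 1401 to 3258 genes called in Prop1df/df minus Pit1+/+, 1 of 83 to 161 in Pit1dw/dw minus Pit1+/+ and 2 to 6 of 826 to 1578 in Prop1df/df minus Pit1dw/dw, and 0 to 1, 0 to 1 and 1 to 2 collagens for the bone, cartilage and ganglion slopes. The median collagen change ran there from 0.066 to 0.332, from -0.015 to 0.20 and from 0.045 to 0.151 in the 3 comparisons, and with array weights it was -0.069 in Pit1dw/dw minus Pit1+/+. Array weights gave 4297, 571 and 2390 genes in the 3 comparisons, 2 collagens in Pit1dw/dw minus Pit1+/+, and 0 and 1 for the cartilage and ganglion slopes. Averaging the probe sets of each gene gave 1 collagen in Prop1df/df minus Pit1dw/dw and 0 for the bone and cartilage slopes. Leaving out probe sets with an _x, _s or _a suffix, which removes Col2a1, gave 3 there and 1 for the ganglion slope, and leaving out dim probe sets 0 for the cartilage slope. Bone and cartilage means as covariates gave 5 collagens of 915 genes, 81 genes and 3 collagens of 651 genes in the 3 comparisons, and the ganglion mean 3063 genes in Prop1df/df minus Pit1+/+. Without the pools high in Prph there were 5 collagens, 0 collagens of 51 genes, and 2 collagens of 746 genes. The fibroblast mean as a covariate gave 4 of 886 and, in Prop1df/df minus Pit1dw/dw, 2. Without Prop1df/df pools high in Gh there were 890 genes against Pit1+/+ and 2 collagens of 503 genes against Pit1dw/dw, and without those low in Gh 4 of 1251 and 2. With the replicate number as a block, 0 collagens were called on the bone, cartilage and ganglion slopes, and Col13a1 and Col9a1 against Pit1+/+ (adjusted p = 0.0513 and 0.0501) and Col9a1 and Col20a1 against Pit1dw/dw (0.051 and 0.0578) missed the threshold. Arrays limit dim members: 7 of 42 lie below the median signal.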
